A study of Mus musculus with 6 samples.

Results

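Meox1, Tcf21, Hand2, Lhx2, Foxf1, Prrx1, Twist1 and Runx1 are transcription factor genes of mesenchymal cells, and their counts were followed in 6 fibrotic mouse livers. The 8 genes were taken by symbol from a table of 21983 genes. All 8 are in the table and all 8 passed the filter on low counts, which kept 13153 genes. They were chosen by their role with the measured genotype comparison already known, and Meox1 was selected on its low counts in one genotype and small p, so differences between the genotypes are given as a description and without a p-value.

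RNA of whole liver was sequenced from C57BL/6 mice that had drunk thioacetamide (TAA), a hepatotoxin that scars the liver, at 400 mg/L for 16 weeks. The 3 Lrat-Cre; Prmt1f/f mice (numbers 49, 82 and 88, called knockout here) carry a floxed Prmt1 allele and Cre recombinase under the control of Lrat, whose liver expression is typical of the vitamin A-storing stellate cells. The 3 Prmt1f/f mice (numbers 42, 83 and 90, called control here) carry the floxed allele without Cre. All 6 mice received TAA, the labels give an age of 10 weeks for all of them without saying to which time point it refers, and an effect of TAA itself cannot be read from these groups. Prmt1, the targeted arginine methyltransferase, had 35.8, 24.7 and 25.8 CPM (counts per 1000000 counts of the scaled library) in knockout mice 49, 82 and 88, against 38.9, 44.4 and 49.8 CPM in control mice 42, 83 and 90. The groups did not overlap, and the log2 fold change was -0.62 (SE 0.20, adjusted p = 0.347, edgeR quasi-likelihood test with Benjamini-Hochberg adjustment). Other liver cells than stellate cells keep the gene and are part of that level. Libraries held between 13303884 and 16462278 counts. Libraries 42, a control, and 49, a knockout, bear numbers far from the 4 over 80, a split the labels do not call a batch.

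Stellate cells are liver-resident mesenchymal cells that store retinoids at rest and become collagen-producing myofibroblasts after injury. Their identity is held by transcription factors laid down in the embryonic septum transversum and mesoderm, among them Lhx2, Hand2, Tcf21 and Foxf1. Fibroblasts activated in other organs use further mesodermal factors such as Meox1, Prrx1, Twist1 and Runx1. The 8 proteins read DNA through different domains. Meox1, Lhx2 and Prrx1 carry a homeodomain, Tcf21, Hand2 and Twist1 a basic helix-loop-helix (bHLH) domain that pairs with E proteins, Foxf1 a forkhead domain, and Runx1 a Runt domain that pairs with Cbfb.

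Meox1, a homeobox gene of the somites that TGF-beta induces in activated mouse cardiac fibroblasts, was nearly unread in knockout livers. It had 2 counts in each of knockout mice 49, 82 and 88, against 19, 36 and 23 counts in control mice 42, 83 and 90. Every knockout liver lay below every control liver, with no overlap and no mouse between the groups. Summed over each group these were 6 counts in knockout and 78 counts in control livers, and scaled for library size the knockout level was 0.0844 of the control level (95% counting interval 0.0301 to 0.192, counting error only). A count of 2 has itself an exact Poisson interval from 0.242 to 7.22 counts, so the knockout mice cannot be told apart at this depth, whereas control mouse 42 alone, with 19 counts, has an interval from 11.4 to 29.7. The fitted log2 fold change was -3.48 (SE 0.53). At these counts the fitted size depends on the constant added before the log, and with a prior count of 2 it was -2.71. Leaving out each mouse in turn gave -3.64 to -3.40. The gene lies on the minus strand of chromosome 11 from 101877510 to 101894374 (GENCODE on GRCm38), and its exons share no base with another annotated gene. In whole liver, fewer cells of a type and less RNA per cell cannot be told apart, for Meox1 and for every gene below.

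**Figure D1:**
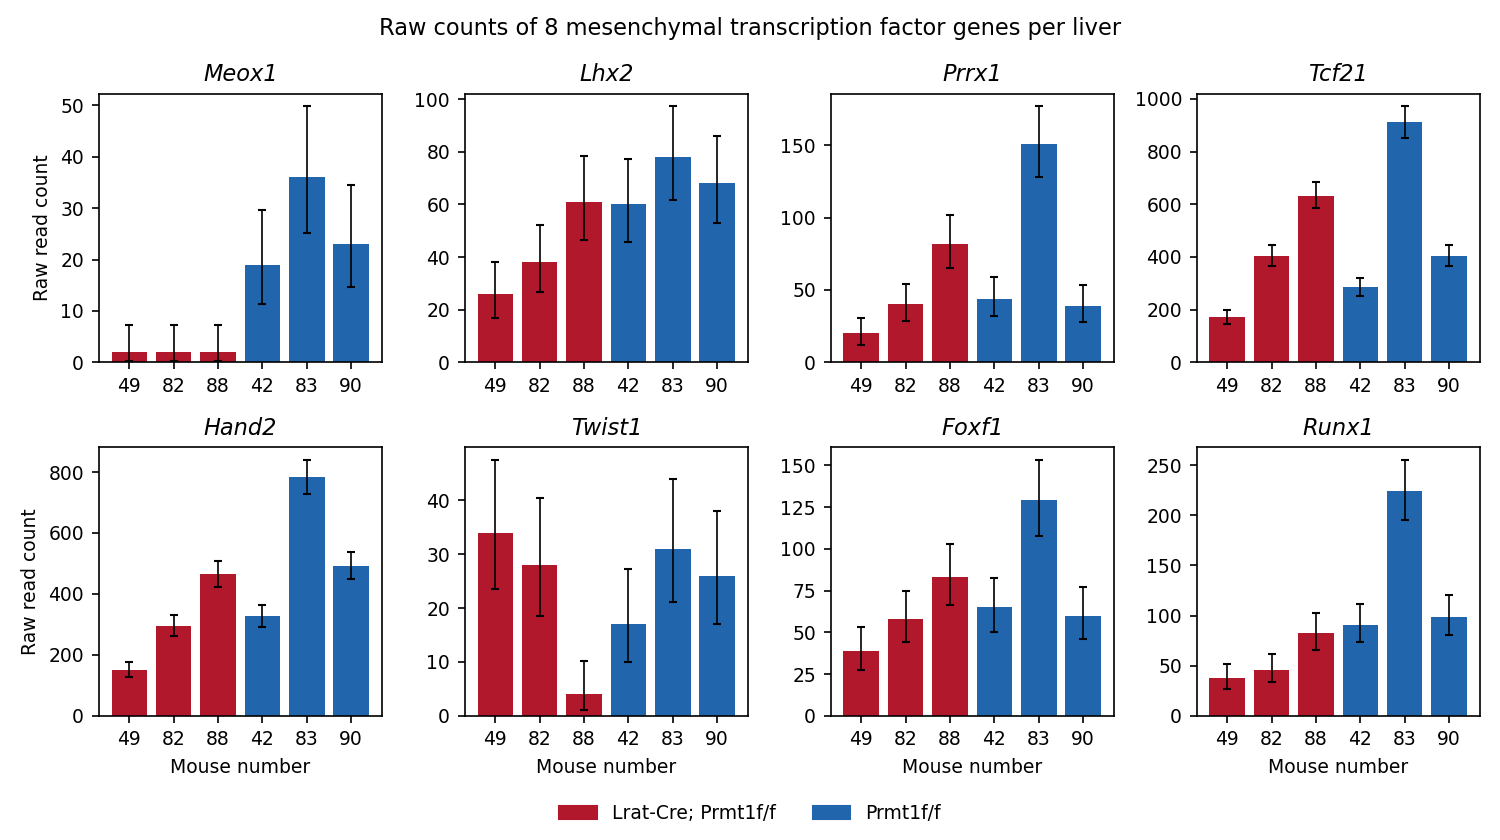
Raw read counts (y axes, linear from 0, each gene on its own scale) of the 8 genes in each liver (x axes, mouse number), knockout in red and control in blue, with exact 95% Poisson intervals as bars. Meox1 stands at 2 counts in all 3 knockout livers against 19 to 36 in control livers, while in Prrx1, Tcf21 and Foxf1 the livers of both genotypes are interspersed.

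Runx1, best known as a regulator of blood stem cells and also made by leukocytes, endothelium and activated fibroblasts, was the other member whose groups did not overlap. It had 38, 46 and 83 counts in knockout mice 49, 82 and 88, against 91, 224 and 99 counts in control mice 42, 83 and 90. After scaling, the separation was narrow, since the highest knockout liver (mouse 88) had 5.98 CPM and the lowest control liver (mouse 42) 6.07 CPM. Mean levels were 3.96 ± 1.82 CPM in knockout and 8.52 ± 2.68 CPM in control livers (SD, n = 3 each), a log2 fold change of -1.11 (SE 0.39), and -1.57 to -0.84 with each mouse left out. Leukocyte markers, which include the pan-leukocyte gene Ptprc, had a median log2 fold change of -0.98. Their 18 genes, none at 0, summed to 314 to 430 CPM in knockout and 279 to 734 CPM in control livers. Control mouse 42 had the lowest leukocyte sum of all 6 livers (279 CPM) and a Runx1 level just above that of mouse 88 (380 CPM of leukocyte markers). The part of leukocytes in the Runx1 difference was not tested.

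Groups that did not overlap were thus found in 2 of the 8 genes, both lower in knockout livers, against 16.9% of all 13153 genes in either direction and 7.95% in the lower direction. All 8 fold changes were negative, as were 52.7% of those of all genes tested. Their median log2 fold change was -0.53, against -0.02 over all genes tested. With edgeR 0 of the 8 had an adjusted p under 0.05, as 0% of all genes did, and 2 had an unadjusted p under 0.05, against 11.0% of all genes. DESeq2 called Meox1 alone of the 8, against 1.81% of the genes to which it gave an adjusted p. The genes were chosen with this comparison known, so nothing is read from these counts.

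**Figure D2:**
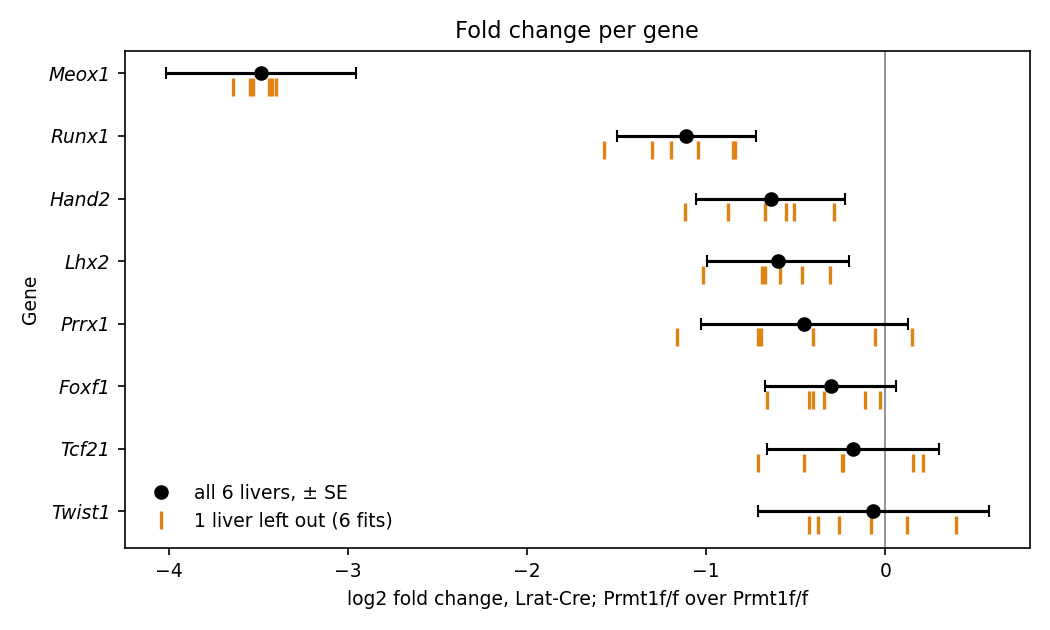
log2 fold changes of knockout over control livers (x axis) for the 8 genes (y axis), with black points and bars for the fit of all 6 livers ± SE and orange ticks for the 6 fits that each leave out a liver. Meox1 lies at -3.48 and its ticks stay between -3.64 and -3.40, while the ticks of Prrx1, Tcf21 and Twist1 fall on both sides of 0.

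Lhx2, a LIM-homeodomain factor whose loss leaves the stellate cells of mouse embryos activated and the liver fibrotic, was lower on average with overlapping groups. It had 26, 38 and 61 counts in knockout mice 49, 82 and 88, against 60, 78 and 68 counts in control mice 42, 83 and 90. After scaling, knockout mouse 88 lay above control mice 42 and 83, and knockout mice 49 and 82 lay below every control mouse. The log2 fold change was -0.60 (SE 0.40), -0.31 without mouse 49 and -1.02 without mouse 88. The groups did not overlap when libraries were scaled by their total counts only. The share of all genes without overlap was not computed for that setting.

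Hand2, a bHLH factor of heart, limb and resting stellate cells, was abundant among these genes and followed the same order within the knockout group. It had 152, 296 and 464 counts in knockout mice 49, 82 and 88, against 326, 783 and 493 counts in control mice 42, 83 and 90. The groups overlapped through knockout mice 82 and 88, at 22.2 and 33.4 CPM, both above control mouse 42 at 21.7 CPM. Means were 21.8 ± 11.8 CPM in knockout and 33.9 ± 10.6 CPM in control livers (SD, n = 3 each), a log2 fold change of -0.64 (SE 0.41). Without knockout mouse 49 it was -0.28 and without knockout mouse 88 it was -1.12. The exons of Hand2 share 461 bases with Hand2os1 on the opposite strand, and since the strand setting of the counting is not given in the sources used here, reads of the 2 genes cannot be told apart there. The same holds for 106 exon bases of Runx1, shared with Gm26626, and 98 of Foxf1, shared with a microRNA gene.

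Tcf21, a bHLH factor of mesenchymal progenitors that returns activated mouse stellate cells towards rest when forced on, differed little between the genotypes and widely between mice. It had 171, 403 and 633 counts in knockout mice 49, 82 and 88, against 284, 911 and 404 counts in control mice 42, 83 and 90. Means were 28.9 ± 17.3 CPM in knockout and 32.8 ± 13.7 CPM in control livers (SD, n = 3 each). The log2 fold change of -0.18 (SE 0.48) was smaller than its error, and its sign depended on single mice, at 0.21 without knockout mouse 49 and 0.16 without control mouse 83.

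Foxf1, a forkhead factor of gut-tube mesenchyme whose reduced dose in mice weakens stellate cell activation after injury, had 39, 58 and 83 counts in knockout mice 49, 82 and 88, against 65, 129 and 60 counts in control mice 42, 83 and 90. The groups overlapped, and the log2 fold change was -0.31 (SE 0.37), which was -0.03 without knockout mouse 49, -0.66 without knockout mouse 88 and -0.11 without control mouse 83. Prrx1, a homeodomain factor of limb and craniofacial mesenchyme and of fibroblasts, had 20, 40 and 82 counts in knockout mice 49, 82 and 88, against 44, 151 and 39 counts in control mice 42, 83 and 90. Its control mean rests on mouse 83, and the log2 fold change of -0.45 (SE 0.58) was 0.15 without that mouse, -1.16 without knockout mouse 88 and -0.06 without knockout mouse 49.

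Twist1, a bHLH factor of mesoderm that in other organs drives epithelial cells to a mesenchymal state, was set apart by a single liver. It had 34, 28 and 4 counts in knockout mice 49, 82 and 88, against 17, 31 and 26 counts in control mice 42, 83 and 90. Knockout mouse 88 was lowest of all, with an exact Poisson interval of 1.09 to 10.2 counts that lies below the interval of knockout mouse 49 (23.6 to 47.5). The log2 fold change was -0.07 (SE 0.64), and 0.39 without mouse 88. The 16 endothelial markers, none at 0, also had their lowest sum in mouse 88, at 482 CPM, against 553.5 to 712 CPM in the other knockout livers and 536 to 619.5 CPM in control livers. Their part in the low Twist1 count was not tested.

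Mice of one genotype differed from each other in most of these genes in a shared order. Prrx1, Tcf21 and Foxf1 ranked all 6 livers identically, from control mouse 83 at the top through knockout mouse 88, control mouse 90, knockout mouse 82 and control mouse 42 to knockout mouse 49 at the bottom. In that order the genotypes alternate. Among the 7 genes other than Meox1, 6 were lowest in mouse 49 and highest in mouse 88 within the knockout group, with mouse 82 between, and Twist1 had the opposite order. That order was not particular to these genes. Summed markers of myofibroblasts, portal fibroblasts, vascular smooth muscle, mesothelial cells and cholangiocytes (308, 607 and 780 CPM in mice 49, 82 and 88) had it too. Sums of stellate cell, endothelial, leukocyte and hepatocyte markers did not. Some of these lists share genes. Spp1, in both the myofibroblast and cholangiocyte lists, had 236.7, 488.8 and 622.1 CPM in mice 49, 82 and 88, most of the cholangiocyte sum. Fn1, the largest part of the myofibroblast sum, had 1695, 1890 and 1930 CPM. Single genes departed from the order of their sum, as the myofibroblast gene Col1a1 did with 65.4, 148.8 and 119.5 CPM in these mice. From mouse 88 to mouse 49 the ratio of CPM was 4.59 for Prrx1, 4.14 for Tcf21, 3.42 for Hand2, 2.63 for Lhx2, 2.45 for Runx1 and 2.38 for Foxf1. For Twist1 the level in mouse 49 was 7.59 times that in mouse 88. Within the control group, 6 of the 7 genes were lowest in mouse 42. Mice 49 and 42 are the ones numbered apart from the 4 over 80, and with that split as a term in the fit, an alternative chosen after the data were seen, the log2 fold change was -3.47 for Meox1, -1.13 for Runx1 and between -0.73 and -0.09 for the other 6 genes. These are orders within 6 mice and carry no test.

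**Figure D3:**
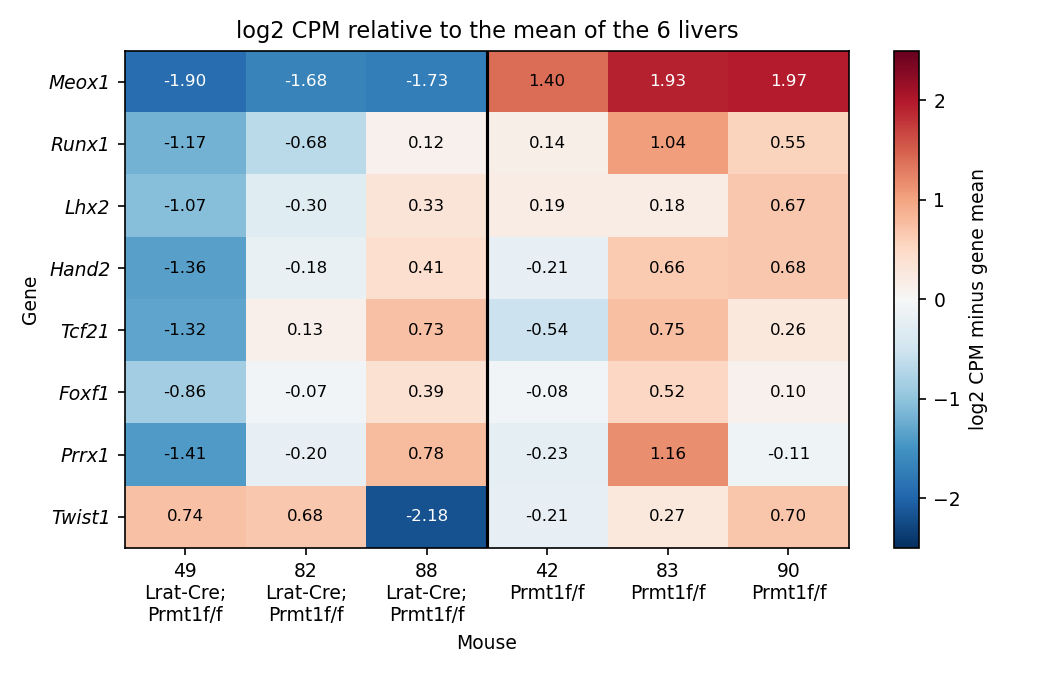
Heat map of log2 CPM minus the mean of the gene over the 6 livers, with genes down the page and mice across, knockout livers left of the line and control livers right of it. Meox1 runs from -1.90 to -1.68 in knockout and from 1.40 to 1.97 in control livers. Most other genes are lowest in mouse 49, and Twist1 is lowest in mouse 88 at -2.18.

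Promoters from RefSeq (GRCm38.p6), 250 bases before to 50 bases after a transcription start, were at hand for 6 of the 8 genes, with Meox1 and Foxf1 missing from that table. They are shown for Prrx1 and Tcf21, which ranked the 6 livers identically, for Hand2, which shared their order among knockout livers, for Twist1, which had the opposite order there, and for the distal of 2 Runx1 promoters. Prrx1 is at chr1:163313601-163313900 (minus strand), Tcf21 at chr10:22820094-22820393 (minus strand), Hand2 at chr8:57320733-57321032 (plus strand), Twist1 at chr12:33957421-33957720 (plus strand) and Runx1 at chr16:92826025-92826324 (minus strand). Each is written 5′ to 3′ along the gene, and capitals mark matches on either strand to the core motifs of 3 of the DNA-binding classes, the E-box of bHLH factors (CANNTG), a homeodomain core (TAATTA) and the Runx core (TGTGGT or, on the other strand, ACCACA). No marked motifs overlap.
Prrx1: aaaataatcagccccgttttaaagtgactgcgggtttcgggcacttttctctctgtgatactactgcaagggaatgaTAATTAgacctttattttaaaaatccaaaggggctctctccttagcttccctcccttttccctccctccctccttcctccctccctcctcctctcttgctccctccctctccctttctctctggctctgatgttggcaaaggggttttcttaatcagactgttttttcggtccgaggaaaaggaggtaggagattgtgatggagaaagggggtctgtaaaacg
Tcf21: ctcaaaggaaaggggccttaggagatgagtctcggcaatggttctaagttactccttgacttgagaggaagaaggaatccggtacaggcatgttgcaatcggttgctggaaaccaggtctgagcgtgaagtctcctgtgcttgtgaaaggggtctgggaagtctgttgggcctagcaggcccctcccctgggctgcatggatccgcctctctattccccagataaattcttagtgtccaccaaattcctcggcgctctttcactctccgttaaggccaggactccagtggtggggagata
Hand2: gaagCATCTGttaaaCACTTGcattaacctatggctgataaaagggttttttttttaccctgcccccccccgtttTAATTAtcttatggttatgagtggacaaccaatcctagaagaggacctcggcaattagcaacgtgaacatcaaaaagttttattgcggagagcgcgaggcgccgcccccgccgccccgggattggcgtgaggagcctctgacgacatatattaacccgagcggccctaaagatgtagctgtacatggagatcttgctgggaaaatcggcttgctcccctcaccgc
Twist1: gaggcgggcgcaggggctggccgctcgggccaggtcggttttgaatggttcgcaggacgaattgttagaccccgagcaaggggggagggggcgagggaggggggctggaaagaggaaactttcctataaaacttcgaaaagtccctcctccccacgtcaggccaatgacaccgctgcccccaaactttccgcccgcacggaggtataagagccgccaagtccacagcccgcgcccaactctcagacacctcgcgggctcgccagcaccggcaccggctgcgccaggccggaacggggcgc
Runx1: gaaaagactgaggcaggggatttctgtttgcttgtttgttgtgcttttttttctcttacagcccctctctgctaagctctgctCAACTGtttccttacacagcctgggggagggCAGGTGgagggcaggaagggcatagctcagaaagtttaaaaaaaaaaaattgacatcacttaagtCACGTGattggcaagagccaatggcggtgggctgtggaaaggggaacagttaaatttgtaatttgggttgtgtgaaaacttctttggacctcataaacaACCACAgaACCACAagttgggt

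The homeodomain core occurred in Prrx1, starting 173 bases before the start site, and in Hand2, 175 bases before it. It was in 5.29% of all 32851 promoters of the table. The E-box, present in 72.3% of all promoters, was found at 2 places in Hand2 (246 and 235 bases before the start) and at 3 in the distal Runx1 promoter (167, 136 and 71 bases before it), and Tcf21, Twist1 and Prrx1 did not hold it in this window. Among the promoters not printed, that of Lhx2 at chr2:38351058-38351357 held an E-box 26 bases after the start. The other Lhx2 promoter and the second Runx1 promoter held none of the 3 motifs. The Runx core, in 16.8% of all promoters, occurred in the distal Runx1 promoter at 29 and 37 bases after the start. These matches are letters in a window, not measured sites.

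Per exon length, the order of levels was led by the bHLH pair of resting stellate cells. CPM divided by the exon length in kilobases (RPKM) averaged 13.1 for Tcf21 and 11.9 for Hand2 over the 6 livers, ranges of 4.69 to 19.7 and 4.16 to 17.1 RPKM that overlap. Foxf1 followed at 1.98 RPKM, below Hand2 in 6 of 6 livers and with ranges that did not overlap. The others lay lower, with Twist1 at 0.964, Lhx2 at 0.852, Runx1 at 0.519, Meox1 at 0.404 and Prrx1 at 0.361 RPKM, and each of these neighbours overlapped the next. Tcf21 stood above Hand2 in 4 livers only, and Meox1 above Prrx1 in 3. Meox1 had 0.0633 ± 0.0049 RPKM in knockout and 0.745 ± 0.153 RPKM in control livers (SD, n = 3 each), the lowest mean of the 8 genes in knockout livers, whereas in control livers its mean differed from that of Runx1 (0.708 ± 0.223 RPKM) by less than the spread between mice. Each knockout liver held 2 counts of Meox1, so its knockout SD reflects library size alone and does not measure the spread between mice. Lengths are the union of the exons of all annotated transcripts, and those of Runx1 (12025 bases) and Prrx1 (11066 bases) are the longest of the 8, so RPKM is understated where the main transcript is shorter.

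**Figure D4:**
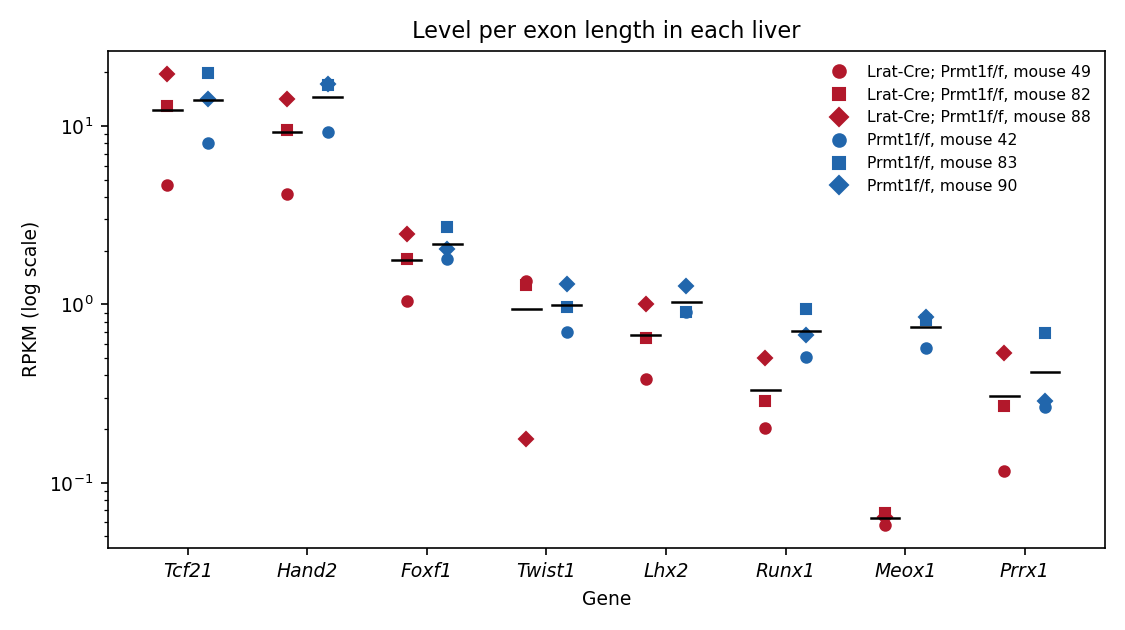
RPKM (y axis, log scale) of the 8 genes (x axis, ordered by mean) in each liver, knockout livers in red left of control livers in blue, marker shapes for mice and black bars for group means. Tcf21 and Hand2 lie between 4.16 and 19.7 RPKM, and Meox1 in knockout livers lies lowest at 0.0578 to 0.0673 RPKM.

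Stellate cell markers, which stand for the cells that the Cre line targets, were summed beside the 8 genes, and their part in the differences was not tested. The 20 markers, none at 0, summed to 646 to 828 CPM in knockout livers and 988 to 1031 CPM in control livers, without overlap. Of 19 tested, 17 had a negative fold change, against 52.7% of all genes, with a median log2 fold change of -0.54 (-0.34 without mouse 49). DESeq2 called 4 of them lower (Lrat at -1.07, Reln at -1.01, Rgs5 at -0.88 and Vipr1 at -0.83), against 0.936% of all genes, and edgeR 0. Per 1000 CPM of these markers, Meox1 stood at 0.185 ± 0.013 in knockout and 1.63 ± 0.30 in control livers (SD, n = 3 each), 11.3% of the control value. Each knockout liver held 2 counts of Meox1, so the SD of 0.013 reflects only library sizes and marker sums. Meox1 levels of 0.129 to 0.150 CPM in knockout and 1.27 to 1.88 CPM in control livers lay far apart. Division by these sums could therefore not make the Meox1 groups overlap, and nothing is read from their separation here. By the same measure the groups overlapped in the 7 other genes, with Runx1 at 60.6% of the control value, Hand2 at 82.6%, Lhx2 at 85.4%, Prrx1 at 94.3%, Foxf1 at 105.5%, Tcf21 at 112.9% and Twist1 at 132.1%. Tmem56 made up 21.7% of the marker sum and had a mean of 219 CPM in knockout and 167.7 CPM in control livers. Without it, an alternative chosen after its value was seen, Meox1 was at 13.9% of the control value, Runx1 at 71.4%, Hand2 at 96.0%, Lhx2 at 99.7%, Foxf1 at 123.4%, Tcf21 at 130.2% and Twist1 at 171.8%, and Prrx1 turned direction to 107.9%.

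Markers of neighbouring mesenchymal and other cells moved in the following ranges, and their part in the differences of the 8 genes was not tested. Myofibroblast markers (18 genes, Cthrc1 at 0) summed to 2241 to 3076 CPM in knockout and 2911 to 3616 CPM in control livers. Fn1, fibronectin, which hepatocytes also make, was the largest part of that sum, with a mean of 1838 CPM in knockout and 1378 CPM in control livers (log2 fold change 0.42). Without it, an alternative chosen after its value was seen, the other 17 markers summed to 546 to 1146 CPM in knockout and 1677 to 2273 CPM in control livers, without overlap. Of 16 myofibroblast markers tested, 15 had a negative fold change, with a median of -1.12, the groups did not overlap in 12, all lower (7.95% of all genes), and DESeq2 called 7, all lower (0.936% of all genes), while edgeR called 0. Portal fibroblast markers (14 genes, none at 0) summed to 71.3 to 130.7 CPM in knockout and 159 to 243 CPM in control livers. Of 13 tested, 8 had a negative fold change (52.7% of all genes), with a median of -0.57 (-0.27 without mouse 49 and -0.28 without mouse 83). The groups did not overlap in 5, against 16.9% of all genes in either direction. Of these, 4 were lower (7.95% of all genes) and 1 was higher, Clec3b (2.33, SE 0.68), named after its value was seen. DESeq2 called 2 portal fibroblast markers, Dpt and Eln, both lower (0.936% of all genes), and edgeR called 0. Timp1 (-2.80, SE 0.33) and Loxl1 (-2.23, SE 0.27) had the smallest p of the myofibroblast list, each at an edgeR adjusted p of 0.0978, and Dpt (-2.42, SE 0.40) and Eln (-1.93, SE 0.48) that of the portal list, Eln being at -1.05 without control mouse 42. Mesothelial markers, of the cells that cover the organ, were low, at 14.6 to 39.5 CPM in knockout and 30.0 to 61.2 CPM in control livers (8 genes, none at 0). Vascular smooth muscle markers (9 genes, none at 0) summed to 28.4 to 55.0 CPM in knockout and 46.0 to 56.8 CPM in control livers, and cholangiocyte markers (10 genes, none at 0) to 308 to 780 CPM in knockout and 556 to 1355 CPM in control livers. All 12 hepatocyte markers, which check the tissue label, had counts, and their median log2 fold change was 0.46 (0.29 without mouse 83).

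The closest relatives of Meox1, Prrx1, Foxf1, Hand2 and Twist1 were read little or not at all. Meox2, the paralog of Meox1, had 0 counts in the 3 knockout livers together and 1 count in the 3 control livers together. Foxf2 and Hand1 had 0 counts in every liver. Prrx2 had 9 counts in knockout and 7 in control livers, and Twist2 had 14 in knockout and 19 in control livers, each summed over 3 mice, and neither passed the filter on low counts. Runx2, the bone-forming relative of Runx1, had 1.16 ± 0.62 CPM in knockout and 2.15 ± 0.16 CPM in control livers (log2 fold change -0.90, SE 0.45), and Runx3, used by T cells, had 1.73 ± 0.53 CPM in knockout and 3.41 ± 1.23 CPM in control livers (-0.97, SE 0.41; SD, n = 3 each). The genotypes did not overlap in either gene, as in 7.95% of all genes in the lower direction, though for Runx3 only 2.32 CPM in knockout mouse 82 against 2.33 CPM in control mouse 42 kept them apart. The adjusted p in edgeR was 0.486 for Runx2 and 0.443 for Runx3.

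The dimerization partners Tcf3, Tcf4, Tcf12 and Cbfb had overlapping groups. The E proteins Tcf3, Tcf4 and Tcf12 averaged 33.1, 25.9 and 37.8 CPM in knockout livers. In control livers they averaged 37.85, 27.3 and 34.7 CPM (log2 fold changes -0.19, -0.08 and 0.12). Cbfb averaged 30.8 CPM in knockout and 33.5 CPM in control livers (-0.12). Of 6 Runx partners and relatives all were tested, 0 were called by edgeR or DESeq2, and the median log2 fold change was -0.12, and between -0.52 (without mouse 88) and 0.02 (without mouse 83) with each mouse left out. Of 14 bHLH partners and relatives 9 were tested, and 8 had a negative fold change, with a median of -0.57 that was -0.10 without mouse 83. DESeq2 called 2 of them, both lower, against 0.936% of all genes in that direction, and edgeR called 0. Both are Id proteins, which bind E proteins and keep them from bHLH factors such as Tcf21, Hand2 and Twist1. Id1 had 16.3 ± 1.42 CPM in knockout and 61.2 ± 23.0 CPM in control livers (log2 fold change -1.91, SE 0.27, adjusted p = 0.17 in edgeR and 4.91e-07 in DESeq2). Id3 had 76.1 ± 6.72 CPM in knockout and 149.4 ± 23.9 CPM in control livers (-0.97, SE 0.19, adjusted p = 0.227 in edgeR and 6.27e-04 in DESeq2; SD, n = 3 each).

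Homeobox and LIM partners showed no call. Of 18 listed 10 were tested, 6 with a negative fold change, with a median log2 fold change of -0.15, and between -0.20 (without mouse 88) and -0.01 (without mouse 49) with each mouse left out. Ldb1, the scaffold that LIM-homeodomain factors such as Lhx2 bind, had 61.1 ± 6.66 CPM in knockout and 52.8 ± 5.54 CPM in control livers (0.21, SE 0.17, adjusted p = 0.653 in edgeR). Lmo2, a LIM-only protein that binds the same scaffold, was at -0.55 (SE 0.39, adjusted p = 0.608 in edgeR). Among forkhead relatives 7 of 11 were tested, with 0 called and a median of 0.13 that lay between -0.10 and 0.31 with each mouse left out. Foxo1, a target of insulin signalling, was at 0.64 (SE 0.22) and Foxm1, of dividing cells, at -1.14 (SE 0.54), with an adjusted p in edgeR of 0.365 for Foxo1 and 0.461 for Foxm1.

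Other mesenchymal transcription factors numbered 57 in the table, of which 48 were tested. Their median log2 fold change was -0.15 with 30 negative, and it lay between -0.26 (without mouse 90) and 0.01 (without mouse 83) with each mouse left out. Groups did not overlap in 5 of the 48, all lower, against 7.95% of all genes. With edgeR 0 were called, and DESeq2 called Klf4, a zinc finger factor of epithelium, endothelium and smooth muscle, at 2.88 ± 0.80 CPM in knockout and 8.91 ± 3.44 CPM in control livers (SD, n = 3 each; log2 fold change -1.63, SE 0.36, adjusted p = 0.256 in edgeR and 0.00701 in DESeq2). Heyl, a Notch target of mural cells, was at -0.96 (SE 0.32, adjusted p = 0.347 in edgeR).

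**Figure D5:**
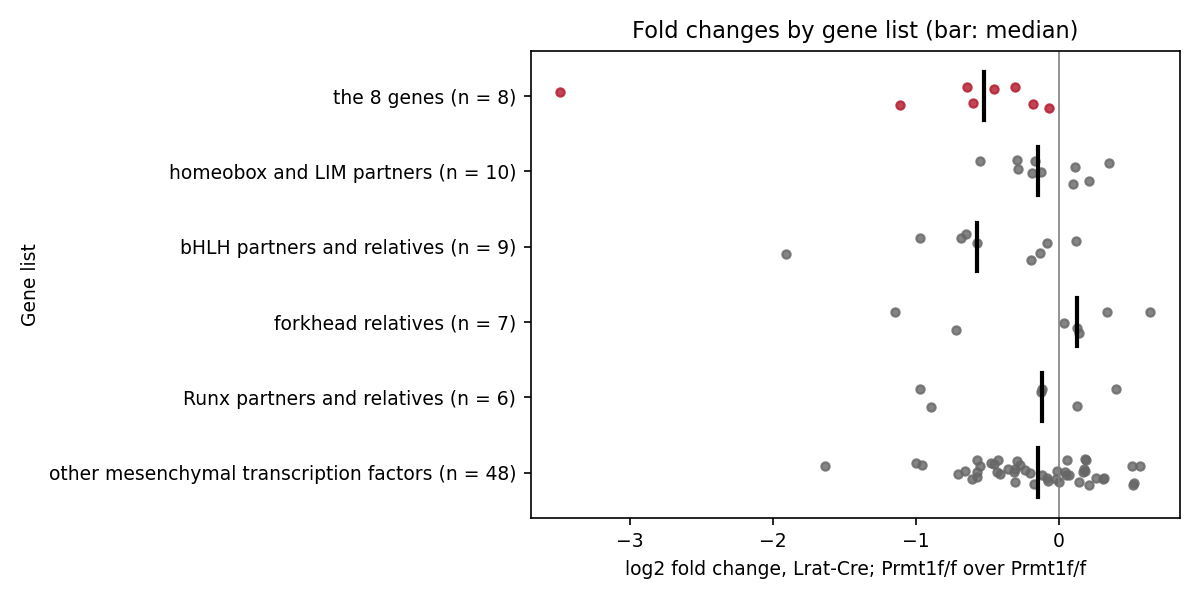
log2 fold changes of knockout over control livers (x axis) for the 8 genes in red and for tested genes of 5 lists of partners, relatives and other mesenchymal factors in grey, with black bars for medians. The median of the 8 genes is -0.53, and those of the lists are -0.15, -0.57, 0.13, -0.12 and -0.15 from the upper list down.

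The genes whose levels followed each of the 8 most closely over the 6 livers were ranked by Pearson's r of log2 CPM, a description over 6 points in which many genes reach high values. For Meox1 these were Timp1, a metalloproteinase inhibitor (r = 0.999), Rtn1, a reticulon of the endoplasmic reticulum (0.996), and Cd248, endosialin of pericytes and fibroblasts (0.995), and 211 tested genes exceeded 0.9. Meox1 was selected on its gap between the genotypes, so any gene with such a gap reaches a high r with it. Spearman's rho was 0.829 for Timp1 and 0.943 each for Rtn1 and Cd248. For Runx1 the closest genes were Cfap300 (0.998), Slc7a6 (0.996) and Ptpre (0.995), for Lhx2 they included Gdf2 (0.991) and Bend5 (0.990), and for Prrx1 Il17re (0.995), Fgfr2 (0.995) and C7 (0.990). For Tcf21 they were Gab2 (0.993), Kcnq1 (0.993) and Dnase1l1 (0.992), for Foxf1 Scarf2 (0.995), Lat2 (0.995) and Slain1 (0.994), and for Hand2 Soat1, Relt and Des, the last being desmin of stellate and muscle cells (0.991 or above each). For Twist1 r was lower, with Lemd2 (0.973), Khdrbs3 (0.970) and the endothelial cadherin Cdh5 (0.970), and 50 tested genes exceeded 0.9.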

How the data were processed

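Total RNA of whole liver was isolated with TRIzol and made into libraries with the NEBNext Ultra RNA kit, per the labels' protocols. The authors deposited raw counts for each gene symbol and mouse. The submitters' processing notes name Trimmomatic, FastQC, STAR, HTSeq and mm10. The annotation, the strand setting and all versions are not given in the sources used. No symbol was repeated, and every row named a gene. Titles gave the genotype of each mouse, and the mouse number tied it to its column.

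Counts were filtered with filterByExpr, scaled by TMM and fitted with edgeR 4.0.16 in R 4.3.3 (quasi-likelihood, genotype alone in the model, all 6 livers). P-values were adjusted by Benjamini-Hochberg over 13153 genes at 0.05. The SE is the fold change divided by the root of F. CPM used the TMM-scaled library size, and RPKM the union of exons in GENCODE M21 (GRCm38, the assembly of mm10). Count intervals are exact Poisson, and the ratio of Meox1 used an exact (Clopper-Pearson) interval, both at 95% and for counting error only. Samples are separate mice per the labels. The test was checked on simulated counts.

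The 8 genes, the lists and the alternatives were chosen with earlier results of these data known, and the motifs after the counts were seen. Named beside the 8 genes and Prmt1 were the 2 genes of each list with the smallest p, genes of a list called by DESeq2 and the 3 genes most like each of the 8, and not all of these are printed. The relatives with few counts, the E proteins and Cbfb, and the genes named for a count of calls, were chosen after their values were seen. Alternatives were RLE or total-count scaling, leaving out the low-count filter, a minimum of 1 CPM in 3 livers, the 20 most abundant genes left out, DESeq2 1.42.0, limma-voom (limma 3.58.1), an adjusted p of 0.10, a prior count of 2, the 4 mice numbered over 80 alone, and each mouse left out. A term for mouse number and marker sums without Tmem56 or Fn1 were added after the data were seen.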

Additional observations from a re-analysis of the deposited data

How the results depend on the processing

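The negative fold changes of Meox1, Runx1, Hand2, Lhx2 and Foxf1 kept their sign under all 16 alternatives, and Meox1 lay between -3.64 and -2.71 on the log2 scale (-3.25 with limma-voom and -2.71 with a prior count of 2). With each mouse left out, Prrx1 lay between -1.16 and 0.15, Tcf21 between -0.71 and 0.21 (0.16 without control mouse 83) and Twist1 between -0.43 and 0.39 (0.12 without control mouse 90), so the sign of these 3 genes rests on single mice. The number of the 8 genes whose groups did not overlap was 2 to 4 with each mouse left out (Foxf1 and Lhx2 joined Meox1 and Runx1 without mouse 88) and 3 in the 4 mice numbered over 80, where Hand2 joined them. Groups of fewer livers have fewer chances to overlap. Nothing is read from these numbers, since the share over all genes was not computed for these settings. The number of genes past an adjusted p of 0.05 was 0 with edgeR, with 1448 at an unadjusted p under 0.05. It was 0 with limma-voom, 238 with DESeq2, 4 with no filter on low counts (Timp1, Loxl1, Id1 and H2-Q1), 3 at an adjusted p of 0.10 (Timp1, Loxl1 and H2-Q1), and 0 to 13 with each mouse left out, the 13 without knockout mouse 49. With mice 42 and 49 set apart from the other 4 by a covariate, added after the data were seen, it was 6 (Cxcl14, H2-Q1, Igfbp7, Loxl1, Serpina12 and Timp1), and all 8 genes kept a negative fold change. Why these counts differ was not tested. Depth limits Meox1 and Twist1 most, since single livers held as few as 2 and 4 counts. The labels name no pairs of mice across the genotypes, so no paired analysis was made.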
